A study of Oryza sativa with 40 samples.

Results

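The genes described here are 8 rice loci of the photorespiratory pathway, out of 19308 genes in the deposited table. They were chosen by locus identifier and kept because each has a row with a fitting product name. Of these, 2 are glycine dehydrogenases (the P protein of glycine decarboxylase, called GDC-P1 and GDC-P2 here), 1 is an aminomethyltransferase (GDC-T) and 1 is a glycine cleavage system H protein (GDC-H). The others are a serine hydroxymethyltransferase (SHMT1), 2 hydroxyacid oxidases taken as glycolate oxidases (GLO1 and GLO4), and a hydroxypyruvate reductase (HPR1). The table names HPR1 only as an erythronate-4-phosphate dehydrogenase domain protein, and these short symbols come from the gene list, not from the table. The study followed leaves of the indica rice cultivar IR64 after a change of temperature, by sequencing total RNA. The plants stood in 12 tanks of nutrient solution, held at 30 °C in the day and 25 °C in the night. Hot leaves came from 4 tanks moved to 40 °C by day and 35 °C by night, cold leaves from 4 tanks moved to 25 and 20 °C, and warm leaves from 4 tanks that stayed. The middle of leaves already full-grown at the move was taken at 2, 6 and 24 h in the hot and cold groups and at 0, 2, 6 and 24 h in the warm group. The move was made in the day and all samples were taken in the day. Each of the 10 groups has 4 libraries. The tank behind each library is not in the labels, so the p-values measure the spread between libraries, which may share a tank.

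Photorespiration begins when Rubisco fixes oxygen in place of carbon dioxide, an error that becomes more frequent as leaves warm. The phosphoglycolate formed is turned into glycolate, which glycolate oxidase oxidises to glyoxylate in the peroxisome, and glyoxylate is then aminated to glycine. In the mitochondrion, the glycine decarboxylase complex and serine hydroxymethyltransferase together turn glycine into serine, releasing carbon dioxide and ammonia. The P protein of that complex removes the carboxyl group, the H protein carries the remaining aminomethyl group on its lipoyl arm, and the T protein passes the carbon to folate. Hydroxypyruvate reductase works near the end of the pathway, making glycerate that returns to the chloroplast.

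Values are CPM, the reads of a gene scaled to the size of its library, taken from the deposited log2 CPM. Changes are log2 differences from a limma model of all genes and all 40 libraries, with SE for the model's standard error. A gene was called risen or fallen where its p, adjusted over the whole table by the Benjamini-Hochberg method, was under 0.05. CPM is not per length, so levels are compared here between samples, not between genes. Reads in genes ran from 1830817 to 9628451 per library, with a median of 5853252, and the member with the fewest reads in any library was GDC-H at 65. Correlations with group mates were lowest for warm 0 h replicate 1 (mean r 0.8597) and hot 24 h replicate 1 (0.8944). All 20 mesophyll marker genes were detected, and their summed level lay between 52810 and 99320 CPM in hot 2 h leaves and between 47220 and 113000 CPM in warm 2 h leaves. At 6 h it lay between 52120 and 68600 CPM in hot leaves and between 33230 and 74360 CPM in warm leaves, and it reached 229300 CPM in 1 hot 24 h library. The 4 vascular and secondary wall markers summed to 31.3 to 34.5 CPM in hot 2 h leaves and 28 to 54.4 CPM in warm 2 h leaves, and to 16 to 33.7 CPM in hot 6 h leaves and 28.2 to 48.2 CPM in warm 6 h leaves. None of those 4 passed the test at either hour, with a median log2 change of −2.10 at 2 h and −1.11 at 6 h, and the part of these markers in the results was not tested. The single guard cell marker had 14.1 to 29.4 CPM in hot 2 h leaves and 23.2 to 31.5 CPM in warm 2 h leaves. The 2 genes taken as markers of dividing cells, named MCM8 and MCM9 in the table, summed to at most 4.14 CPM in any library. No conclusion on dividing cells is drawn from these 2 genes. In leaf tissue, fewer cells of a type and less RNA per cell cannot be told apart.

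Within hours of the move, transcripts of the glycine dehydrogenases were lower in hot leaves than in warm leaves of the same hour. Relative to those warm leaves, GDC-P1 fell at 2 h and at 6 h, and GDC-P2 fell at 2 h. No other member passed the test in hot leaves against warm leaves at these hours. No member passed the test after a day in the heat or at any hour in the cold. The 8 members together made up 1.54% ± 0.262 of the scaled library size in hot 2 h leaves and 2.34% ± 0.118 in warm 2 h leaves. At 6 h they made up 1.06% ± 0.0327 in hot leaves and 1.58% ± 0.186 in warm leaves (SD, n = 4 each). At both hours every hot library lay below every warm one. The sum gives most weight to members with high CPM, and GDC-P1 and GDC-P2 differed most in mean CPM. At 2 h GDC-P1 averaged 3510 CPM in hot and 9459 CPM in warm leaves, and GDC-P2 2622 and 5022 CPM. In warm leaves at 0 h they averaged 3974 and 2467 CPM, and in hot leaves at 6 h 1540 and 2503 CPM. Both rose in warm leaves between 0 and 2 h, as given below. Hot leaves were not tested against 0 h leaves. At 2 and 6 h, means of GDC-T and GDC-H were also lower in hot than in warm leaves. Those of SHMT1, GLO1 and HPR1 were higher. At 24 h the summed shares overlapped, at 2.10% ± 0.408 in hot leaves and 2.38% ± 0.446 in warm leaves.

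**Figure D1:**
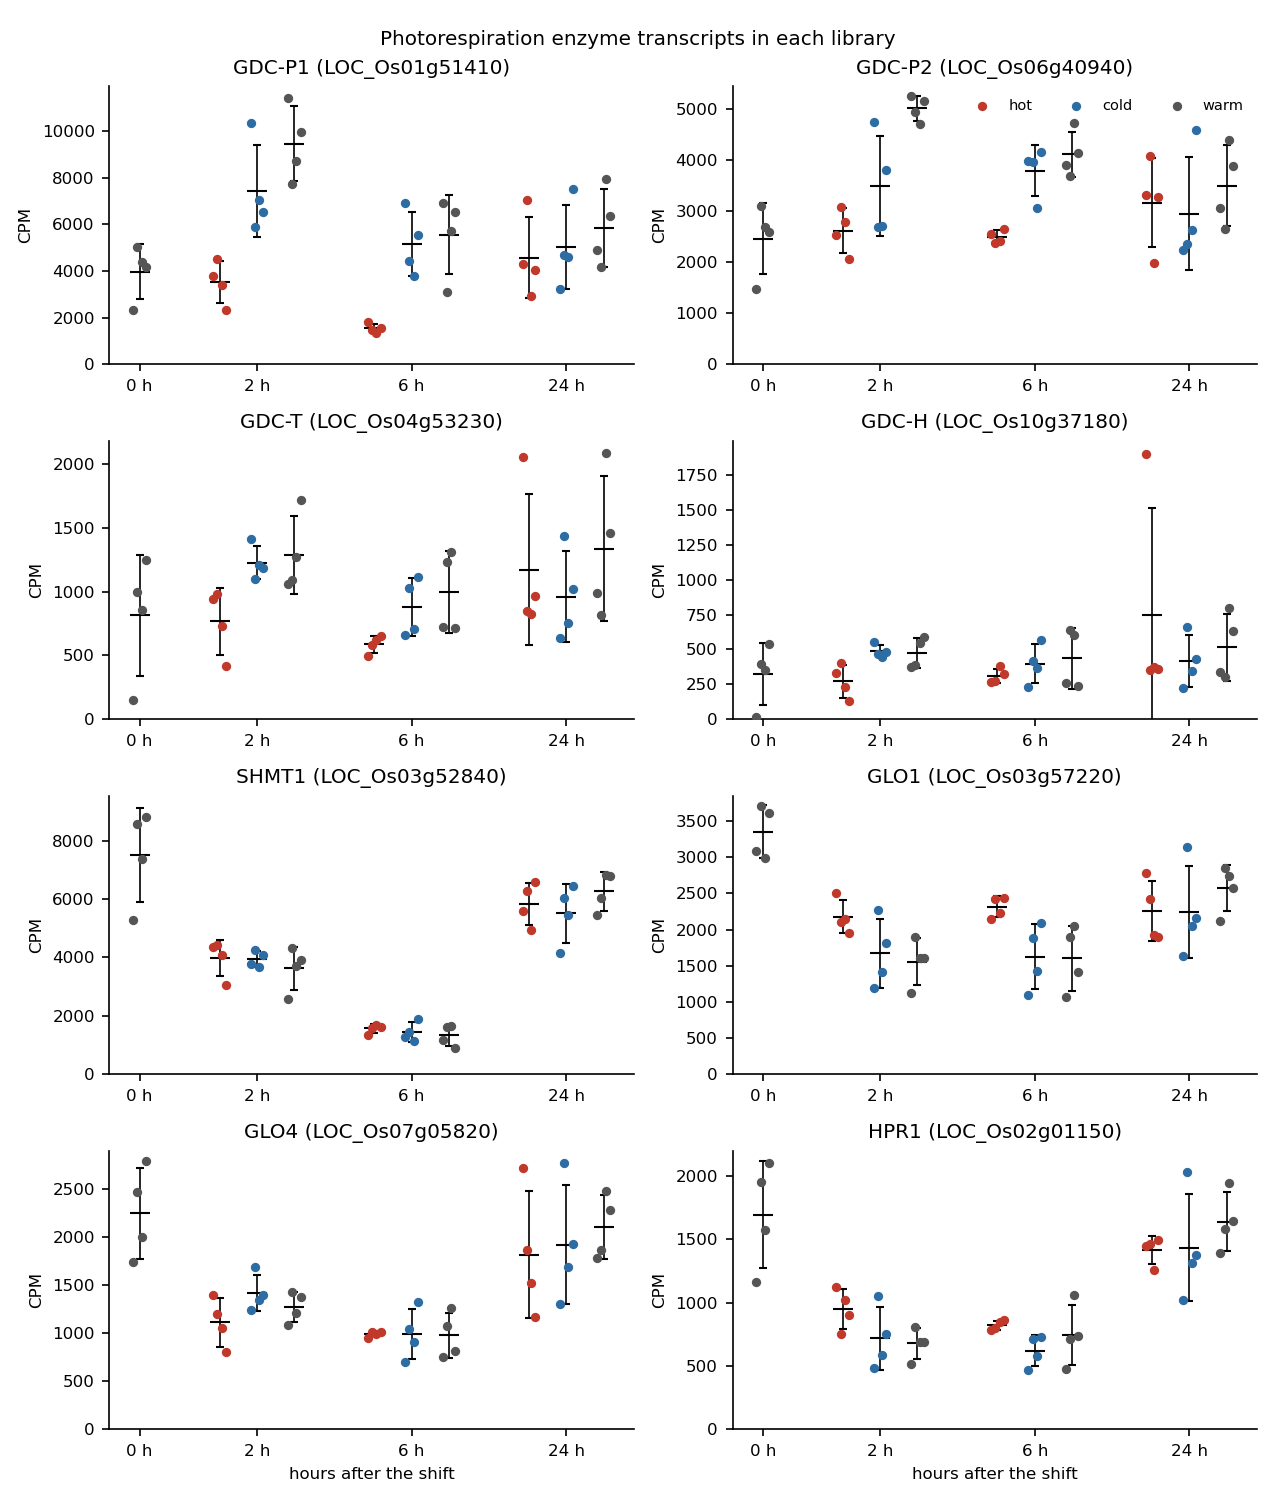
CPM of each member (one panel each, linear axis from 0) in every library at 0, 2, 6 and 24 h, with hot, cold and warm libraries side by side as points; horizontal bars are means and whiskers SD (n = 4), and the whisker of GDC-H in hot 24 h leaves is cut at 0. The hot libraries of GDC-P1 lie below all cold and warm libraries of the same hour at 2 and 6 h, and the SHMT1 libraries of all 3 temperatures overlap at each hour.

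GDC-P1 (LOC_Os01g51410, chromosome 1, 29560350 to 29567065 of build IRGSP-1.0, plus strand) encodes the P protein and was called at both 2 and 6 h. At 2 h it stood at 3772, 4510.0, 3419 and 2342 CPM in the hot libraries, against 11425, 7734, 8722 and 9953 CPM in the warm libraries. The groups did not overlap, and the highest hot library stayed well below the lowest warm one. The log2 change was −1.45 ± 0.30 (SE), a 2.74-fold fall with an adjusted p of 0.00207 in limma. At 6 h the hot libraries held 1819, 1457, 1341 and 1543 CPM, against 6900, 3112, 5720 and 6519 CPM in the warm ones. Warm replicate 2 was the lowest of its group at 6 h and still stood above all hot libraries. The change was −1.80 (95% interval −2.40 to −1.20, adjusted p 0.000129). After 24 h the groups overlapped, with 4570 ± 1745 CPM in hot leaves and 5837 ± 1671 CPM in warm leaves (SD, n = 4 each). The 24 h change was −0.38 (95% interval −0.98 to 0.22, adjusted p 0.904), which leaves room for a fall as well as for none.

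GDC-P2 (LOC_Os06g40940, chromosome 6, 24399538 to 24406050, minus strand) encodes the same subunit from a separate locus. Its hot libraries at 2 h had 2544, 3089, 2799 and 2058 CPM, against 5271, 4942, 4712 and 5162 CPM in the warm ones. Warm leaves at 2 h were tightly grouped, and no hot library came near them. The change was −0.95 ± 0.24 (SE, adjusted p 0.0114). Without hot 2 h replicate 4 it was −0.84 with an adjusted p of 0.0621, so the call was lost. In that fit 582 genes of the whole table passed, against 1584 with all libraries. At 6 h the hot libraries held 2555, 2380.0, 2422 and 2654 CPM, against 3902, 3699, 4734 and 4140.1 CPM in the warm ones. These groups did not overlap either, and the change of −0.71 ± 0.24 had an adjusted p of 0.0627. It passed when only the groups compared were fitted (adjusted p 0.00631) and without the 2 libraries that stood apart (0.0305). Those 2 libraries are not 6 h libraries, and the change was −0.71 in both fits. Of all genes, 14.47% and 10.93% passed in these fits, beside 6.9% in the main one. At 24 h GDC-P2 averaged 3168 ± 871 CPM in hot leaves and 3505 ± 794 CPM in warm leaves (SD, n = 4 each), with overlapping libraries.

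Both loci encode one subunit, and the ratio of 2 genes within a library does not depend on a factor that scales the whole library. It is not corrected for gene length and is read here only between samples. The log2 ratio of GDC-P1 to GDC-P2 was 0.40 ± 0.19 in hot 2 h leaves and 0.90 ± 0.19 in warm 2 h leaves (SD, n = 4 each). It was −0.71 ± 0.16 in hot 6 h leaves and 0.38 ± 0.48 in warm 6 h leaves. At each of these hours all 4 hot libraries lay below all 4 warm ones, with differences of −0.50 and −1.08. An exact two-sided permutation test gave p = 0.0286 for each, the smallest p that 4 against 4 libraries allow, and 0.0857 after adjustment over the 6 comparisons of this ratio. The ratio did not separate the groups at 24 h, where it was 0.50 ± 0.21 in hot leaves and 0.72 ± 0.09 in warm leaves. In cold leaves the ratio was 1.1, 0.42 and 0.76 at 2, 6 and 24 h, against 0.90, 0.38 and 0.72 in warm leaves, with exact p-values between 0.229 and 0.857. The 2 loci are paralogs, and how reads matching more than 1 place were counted is not given in the sources used here.

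**Figure D2:**
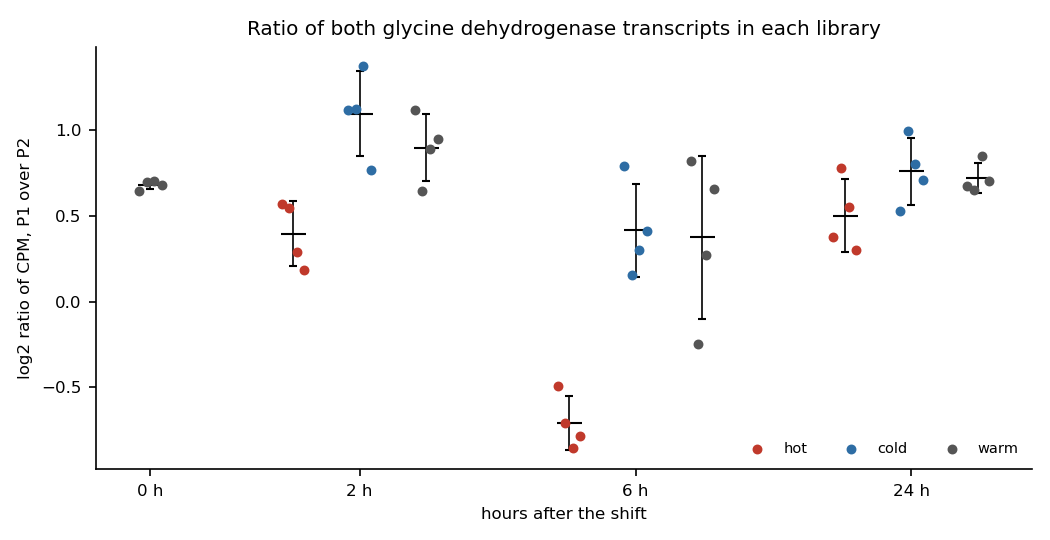
Log2 ratio of GDC-P1 to GDC-P2 CPM in each library (points) at 0, 2, 6 and 24 h, with hot, cold and warm libraries side by side; bars are means and whiskers SD (n = 4). The 4 hot libraries at 6 h, from −0.85 to −0.49, lie below all other libraries shown.

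The remaining members of the complex, GDC-T and GDC-H, had lower hot means at 2 and 6 h without passing the test. Dihydrolipoyl dehydrogenases, which the pathway list below also holds in this complex, are not among the 8 members. GDC-T (LOC_Os04g53230, chromosome 4, 31700907 to 31703617, plus strand) had 940.1, 985, 730.2 and 415 CPM in hot 2 h leaves, against 1064, 1094, 1274 and 1721 CPM in warm 2 h leaves. The groups did not overlap, but the change of −0.80 (95% interval −1.64 to 0.05) had an adjusted p of 0.244. At 6 h the values were again apart, from 495 to 653 CPM in hot leaves and from 715 to 1315 CPM in warm leaves, with a change of −0.71 and an adjusted p of 0.356. Without the 2 libraries that stood apart, the adjusted p at 2 h was 0.0485. Neither of them is a 2 h library, and the change stayed at −0.80 while its SE went from 0.42 to 0.28. In that fit 14.01% of all genes passed, beside 8.2% with all libraries. GDC-H (LOC_Os10g37180, chromosome 10, 19894708 to 19896859, plus strand) overlapped between hot and warm leaves at every hour. It had 334, 400.0, 229.9 and 130.4 CPM in hot 2 h leaves, against 375, 386, 545 and 588 CPM in warm 2 h leaves, and its 95% interval ran from −2.20 to 0.43. Its SE, 0.65, was the widest of the 8. Among its libraries, 15.3 CPM was measured in warm 0 h replicate 1 and 1898 CPM in hot 24 h replicate 1, against 354 to 540.1 and 352 to 373 CPM in the other libraries of those groups.

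Neither glycolate oxidase passed the test in hot leaves. GLO1 (LOC_Os03g57220, chromosome 3, 32628528 to 32632535, plus strand) had 2506, 2104, 2150.1 and 1959 CPM in hot 2 h leaves, against 1122, 1897, 1607 and 1605 CPM in warm 2 h leaves. All hot libraries were above all warm ones, yet the change of 0.50 (95% interval 0.05 to 0.96) had an adjusted p of 0.164. At 6 h the hot libraries, at 2152 to 2442 CPM, again lay above the warm ones, at 1063 to 2044 CPM, with a change of 0.57 and an adjusted p of 0.129. After quantile normalization GLO1 passed at 2 h, with a change of 0.65 and an adjusted p of 0.0177. GLO4 (LOC_Os07g05820, chromosome 7, 2798257 to 2801364, plus strand) gave overlapping groups at all hours. It averaged 1113 ± 254 CPM in hot 2 h leaves and 1273 ± 156 CPM in warm 2 h leaves, and 993 ± 27.8 CPM in hot 6 h leaves and 976 ± 237 CPM in warm 6 h leaves (SD, n = 4 each).

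SHMT1 (LOC_Os03g52840, chromosome 3, 30299551 to 30304249, plus strand), whose enzyme uses the carbon unit that the T protein hands on, gave overlapping groups in hot and warm leaves. It averaged 3974 ± 625 CPM in hot 2 h leaves and 3630 ± 742 CPM in warm 2 h leaves, 1566 ± 149 CPM in hot 6 h leaves and 1328 ± 356 CPM in warm 6 h leaves, and 5836 ± 730 CPM in hot 24 h leaves and 6274 ± 668 CPM in warm 24 h leaves (SD, n = 4 each). Its change was 0.14 at 2 h (95% interval −0.28 to 0.56), so a fall of the size of the 2 P-protein transcripts lies outside the interval. HPR1 (LOC_Os02g01150, chromosome 2, 78483 to 82952, minus strand) had 1120.5, 752, 1021 and 905 CPM in hot 2 h leaves, against 518, 810.4, 688 and 691 CPM in warm 2 h leaves. Only the second hot library reached into the warm range, and the change of 0.49 ± 0.23 (SE) had an adjusted p of 0.190. After quantile normalization that change was 0.67 with an adjusted p of 0.0260. At 6 h HPR1 averaged 821 ± 35.6 CPM in hot leaves and 746 ± 239 CPM in warm leaves.

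In counts over the list, 2 of 8 members fell and 0 rose in hot 2 h leaves, where limma called 8.2% of all genes changed, 3.63% higher and 4.58% lower. In hot 6 h leaves 1 of 8 fell and 0 rose, against 6.9% of all genes changed, 2.39% higher and 4.51% lower. The members' median change was −0.51 at 2 h and −0.15 at 6 h, beside 0.01 and −0.04 over all genes. With 8 members, each call moves the share by a large step. At an unadjusted p under 0.05 there were 4 members at 2 h and 3 at 6 h, beside 23.6% and 20.1% of all genes. In hot 24 h leaves limma called 0 members and 0% of all genes, with 0 members and 1206 genes at an unadjusted p under 0.05, and 0 of both with voom weights. Sequencing lane, read from the library names, is shared by hot and warm leaves only in lane 2. Within it the 2 h change of GDC-P1 was −1.27 with 2 hot libraries and 1 warm one, and the 6 h change was −1.75 with 1 hot library and 2 warm ones. For GDC-P2 the lane 2 changes were −0.88 at 2 h and −0.79 at 6 h.

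**Figure D3:**
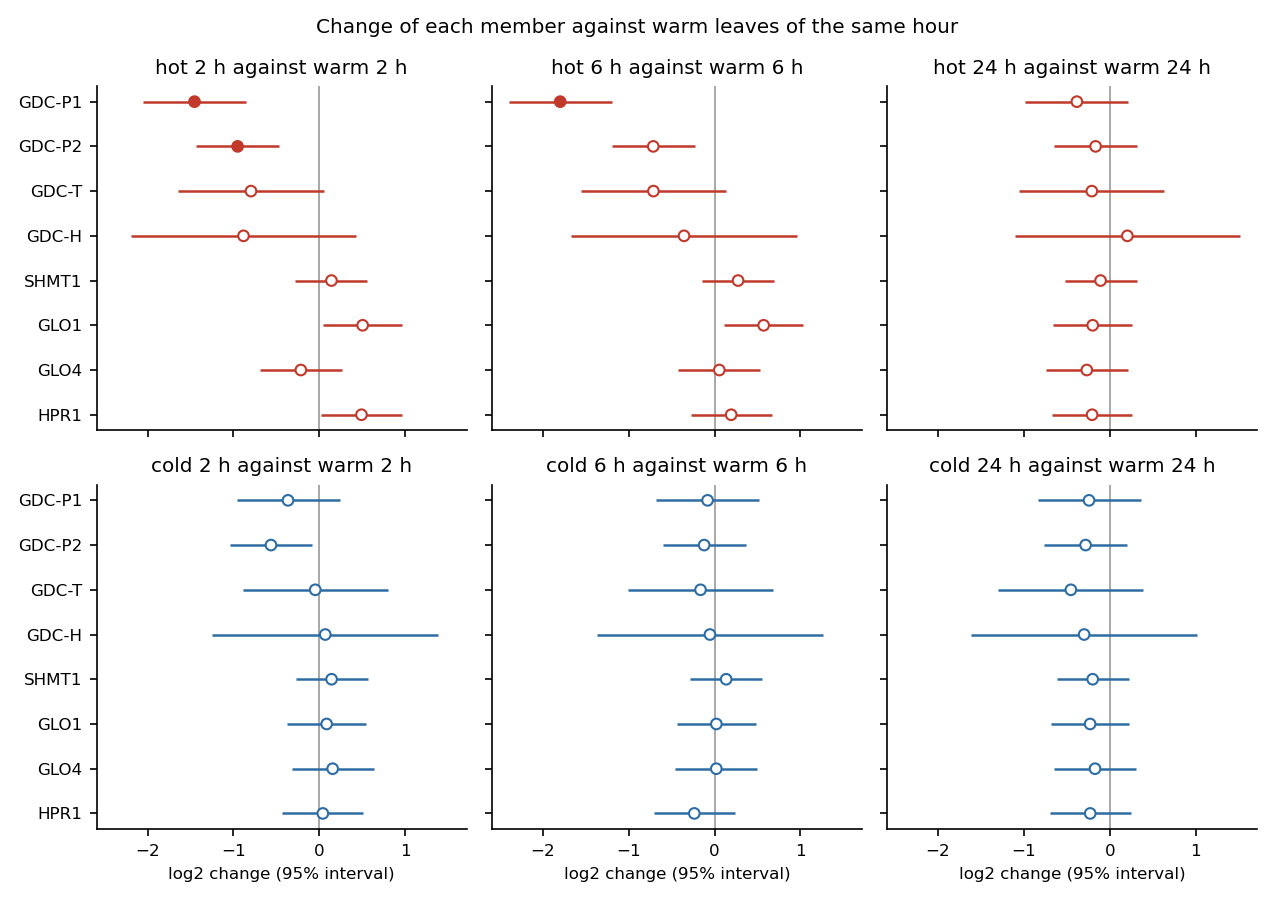
Log2 change of each member in hot leaves (top row) and cold leaves (bottom row) against warm leaves of the same hour, at 2, 6 and 24 h; lines are 95% intervals of the limma fit and filled points have an adjusted p under 0.05. Filled points are GDC-P1 at 2 and 6 h in hot leaves and GDC-P2 at 2 h in hot leaves.

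Whether the heat response itself differed between hours was tested as a difference of differences. No member passed. For GDC-P1 the hot minus warm change at 24 h lay above that at 6 h by 1.41 (95% interval 0.57 to 2.26, adjusted p 0.0919), where 1.09% of all genes passed, 0.777% upward and 0.311% downward. That difference passed after quantile normalization (1.74, adjusted p 0.0351) and without warm 6 h replicate 2 (1.67, adjusted p 0.0409). For GDC-P2 the same difference was 0.55 with an adjusted p of 0.493, and for GLO1 it was −0.77 with an adjusted p of 0.263. Between 6 and 2 h the difference for GDC-P1 was −0.34 (95% interval −1.19 to 0.50), where 0.0673% of genes passed, 0.0155% upward and 0.0518% downward. Between 24 and 2 h, where 0.834% of genes passed (0.513% upward and 0.321% downward), it was 1.07 for GDC-P1 and 0.79 for GDC-P2, with adjusted p-values of 0.216 and 0.259. At an unadjusted p under 0.05 there were 2 members for 24 against 6 h, 4 for 24 against 2 h and 0 for 6 against 2 h, beside 13.5%, 14.98% and 7.28% of all genes. With voom weights 0 members passed in these 3 comparisons. For the cold minus warm changes, limma called 0 members and 0% of all genes in each pair of hours, with 0 members at an unadjusted p under 0.05 and 0 with voom weights.

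In cold leaves no member passed the test against warm leaves. The change of largest size was that of GDC-P2 at 2 h, with 4755, 2701, 2714 and 3816 CPM in cold libraries, against 5271, 4942, 4712 and 5162 CPM in warm ones. The first cold library reached the warm range and the others lay below it, and the change was −0.56 (95% interval −1.05 to −0.08, adjusted p 0.724). GDC-P1 at 2 h had 10326, 5895, 7032 and 6514 CPM in cold libraries, against 7734 to 11425 CPM in warm ones, with a change of −0.37 and an adjusted p of 0.893. In limma 0 members were called in cold leaves at 2, 6 and 24 h, and 0% of all genes at each hour. At an unadjusted p under 0.05 there was 1 member at 2 h and 0 at 6 and 24 h, and over all genes 1251, 869 and 1457. Voom weights gave 0 members at each hour, and 4, 2 and 0 genes of the whole table. At 24 h all 8 changes were below 0, between −0.45 and −0.17, and all 8 groups overlapped. The median change over all genes was 0.0026, and the share of all genes below 0 was not counted. Hot 24 h leaves, set against the same warm libraries, had 1 of 8 changes above 0, that of GDC-H (0.21). The shared sign is thus not particular to cold leaves. Warm 24 h replicate 3 had the fewest reads in genes (1830817) and the highest summed share of its group, 2.92%. Its part in these signs was not tested. Cold and warm leaves share no sequencing lane.

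The hot libraries were also set against the cold ones, a comparison that shares its hot libraries with the one above. GDC-P1 fell in hot leaves relative to cold leaves at 2 h, with a change of −1.09 ± 0.30 (SE, adjusted p 0.0107), with hot libraries at 2342 to 4510.0 CPM and cold libraries at 5895 to 10326 CPM. It was 1 of 8 members called there, beside 15.1% of all genes changed, 6.73% higher and 8.32% lower. Without hot 2 h replicate 4 or without cold 2 h replicate 1 it did not pass (adjusted p 0.0638 and 0.0520), nor after quantile normalization (−0.84, adjusted p 0.0675). At 6 h GDC-P1 fell again, with a change of −1.72 ± 0.30 (adjusted p 0.000205), with 1341 to 1819 CPM in hot libraries and 3768.5 to 6917 CPM in cold libraries. Again it was 1 of 8, beside 8.28% of all genes changed, 3.17% higher and 5.11% lower. With lane in the model GLO1 passed too (1.00, adjusted p 0.0304), beside 4.96% of all genes. When only the groups compared were fitted 5 members passed, beside 22.6% of all genes. GDC-P2 at 6 h was also lower in every hot library, at 2380.0 to 2654 CPM against 3059 to 4165 CPM in cold ones, with a change of −0.59 and an adjusted p of 0.125. GDC-T and GDC-H at 2 h did not overlap between hot and cold leaves either. Their changes were −0.75 and −0.95, with adjusted p-values of 0.234 and 0.343, which became 0.0489 and 0.0461 without the 2 libraries that stood apart. Neither of those is a 2 h library, so both changes stayed the same, and 21.35% of all genes passed in that fit. At 24 h 0 members and 0% of all genes were called by limma, with 0 members and 1469 genes at an unadjusted p under 0.05 and 0 of both with voom weights. Within lane 3, with 1 cold library at each hour, GDC-P1 differed by −1.87 at 2 h and by −2.26 at 6 h.

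With no shift of temperature, both P-protein transcripts rose between 0 and 2 h, and SHMT1, both glycolate oxidases and HPR1 fell. GDC-P1 rose at 2 h relative to 0 h, with 11425, 7734, 8722 and 9953 CPM at 2 h against 2318, 5033, 4379 and 4166 CPM at 0 h (change 1.29, adjusted p 0.00148). GDC-P2 rose as well, at 4712 to 5271 CPM at 2 h against 1485 to 3103 CPM at 0 h (change 1.08, adjusted p 0.00108). For GDC-T and GDC-H the changes were 1.00 and 1.33, with adjusted p-values of 0.0817 and 0.143, and both overlapped between the hours. These 2 changes rest on warm 0 h replicate 1, which held 147.8 CPM of GDC-T and 15.3 CPM of GDC-H, against 859 to 1252 and 354 to 540.1 CPM in the other 0 h libraries. Without it they were 0.30 and 0.13 (adjusted p 0.594 and 0.893), while GDC-P1 and GDC-P2 still rose, by 1.05 and 0.85. GDC-T passed without warm 0 h replicate 2 or 4 (adjusted p 0.0435 and 0.0245), and GDC-H without replicate 4 (0.0448), fits that keep replicate 1.

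SHMT1 fell at 2 h, to 2588, 4316, 3691 and 3927 CPM, against 5279, 8576, 7374 and 8813 CPM at 0 h (change −1.05, adjusted p 0.000309). GLO1 fell by 1.12 on the log2 scale, with 1122 to 1897 CPM at 2 h against 2989 to 3710.5 CPM at 0 h. Both glycolate oxidases thus stood lower at 2 h. GLO4 fell by 0.80, with 1086 to 1423 CPM at 2 h against 1736 to 2796 CPM at 0 h. HPR1 fell by 1.31, with 518 to 810.4 CPM at 2 h against 1159 to 2101 CPM at 0 h. Adjusted p-values of GLO1, GLO4 and HPR1 were 0.000372, 0.0119 and 7.97e-05, and none of these members overlapped between the hours. GLO4 did not pass when only these 2 groups were fitted (adjusted p 0.0529). In all, 2 of 8 members rose and 4 fell, beside 22.3% of all genes changed, 12.6% higher and 9.69% lower. Of the 20 mesophyll markers 8 were above 0 in this comparison (median −0.29) and 1 rose, and none of the vascular, guard cell or dividing cell markers passed. Their part in these changes was not tested.

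Between 2 and 6 h in warm leaves SHMT1 fell further, to 1154, 1606, 1642 and 911 CPM at 6 h against 2588 to 4316 CPM at 2 h (change −1.47, adjusted p 1.71e-06). GDC-P1 fell too, with a change of −0.82 and an adjusted p of 0.0476, close to the threshold. That call of GDC-P1 was lost with voom weights, with the replicate number as a block (adjusted p 0.0566), when only these groups were fitted (0.0616), and without any 1 of warm 2 h replicates 1, 3 and 4 or warm 6 h replicates 2 and 3. Without warm 6 h replicate 2 the change was −0.56, and after quantile normalization it was 0.06. These were 2 of 8 members, beside 19.6% of all genes changed, 9.04% higher and 10.5% lower. The mesophyll markers were lower at 6 h in 18 of 20 genes (median −0.87, 4 fell and 1 rose), and the guard cell marker fell by 1.06. No vascular or dividing cell marker passed (medians −1.36 and 0.35), and the part of the markers in the falls of SHMT1 and GDC-P1 was not tested. GLO1 and HPR1 had changes of 0.02 and 0.10 between these hours and did not pass, with intervals from −0.44 to 0.48 and from −0.37 to 0.57.

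By 24 h, at the clock time of the 0 h samples, SHMT1 averaged 6274 ± 668 CPM, against 7510.0 ± 1616 CPM at 0 h (SD, n = 4 each). No member passed the test between 24 and 0 h in limma, where 2.92% of all genes passed, 1.58% higher and 1.34% lower. At an unadjusted p under 0.05 there were 3 members, beside 19.9% of all genes, and with voom weights 0 members passed. These 3 were GDC-P2, GDC-T and GDC-H, with changes of 0.53, 0.99 and 1.37, which were 0.30, 0.29 and 0.17 without warm 0 h replicate 1. GLO1 was lower in all 24 h libraries, at 2122 to 2847 CPM against 2989 to 3710.5 CPM at 0 h, with a change of −0.38 and an adjusted p of 0.342. A moderated F test over the 4 warm hours passed for 6 of 8 members, beside 44.7% of all genes. The exceptions were GDC-T and GDC-H, with adjusted p-values of 0.127 and 0.212. The F value was largest for SHMT1, at 60.4, followed by HPR1 at 19.3.

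**Figure D4:**
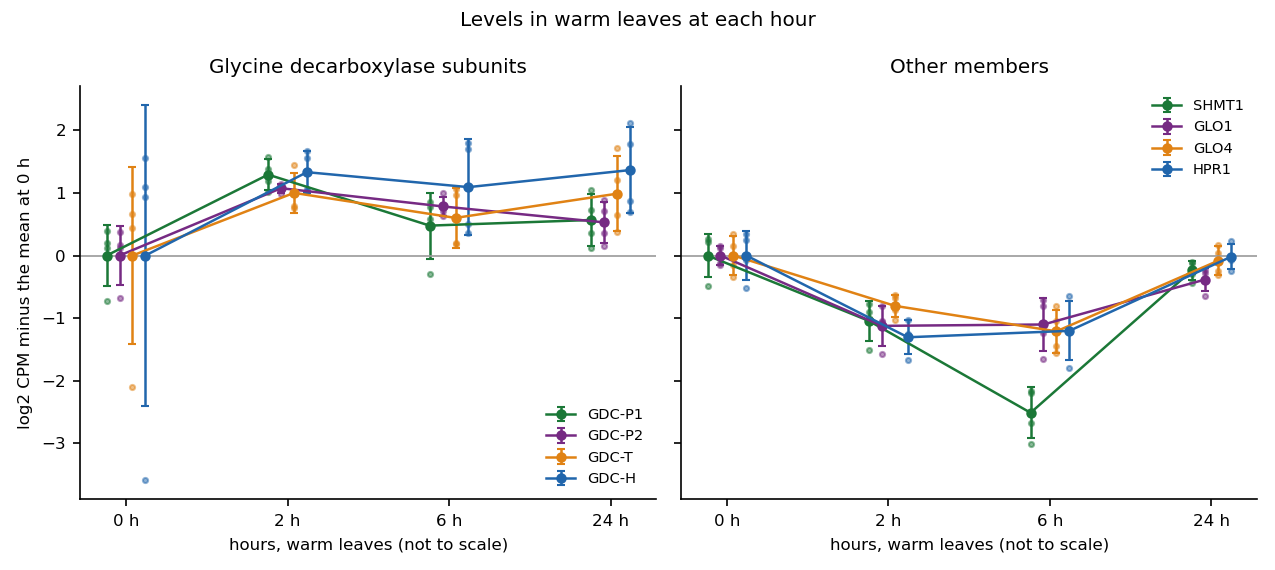
Log2 CPM of each member in warm leaves at 0, 2, 6 and 24 h, minus its own mean at 0 h; small points are libraries, large points group means with SD (n = 4), and hours are not to scale. The 4 glycine decarboxylase members (left) have means above 0 at 2, 6 and 24 h. The other 4 members (right) have means below 0, with SHMT1 lowest at 6 h. Without warm 0 h replicate 1, the low library of GDC-T and GDC-H, their 0 h means are 10.001 and 8.72, above their 6 h means of 9.90 and 8.62.

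The order of the 10 groups differed from member to member. GDC-P1 was highest in warm 2 h leaves (mean log2 CPM 13.19) and lowest in hot 6 h leaves (10.58), next to hot 2 h leaves (11.74). Hot 2 h and hot 6 h leaves were the only neighbours in that order whose libraries did not overlap. GDC-P2 was also highest in warm 2 h leaves, at 12.29, and lowest in warm 0 h leaves, at 11.22, with hot 6 h and hot 2 h leaves just above. Without warm 0 h replicate 1 the warm 0 h mean was 11.44, above both. All its neighbours overlapped. SHMT1 followed the hour: its 4 highest groups were warm 0 h and the 24 h groups of all temperatures, from 12.41 to 12.85, then came all 2 h groups, from 11.80 to 11.94, then all 6 h groups, from 10.33 to 10.61. Its step between warm 2 h and hot 6 h leaves was without overlap. For GLO1, warm 0 h leaves (11.70) stood above warm 24 h leaves (11.32) without overlap, and every lower pair overlapped. GDC-T, GDC-H, GLO4 and HPR1 showed no step without overlap. Each of the 3 steps named had an exact permutation p of 0.0286, the smallest possible, and 0.257 after adjustment over the 9 neighbouring pairs of a member.

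Across the 40 libraries the 4 decarboxylase members were positively correlated with one another, as were the other 4 members. GDC-T and GDC-H had a Pearson r of 0.93 (0.91 over the 38 libraries left without the 2 that stood apart), and GDC-P1 and GDC-P2 had 0.77. Among the others, GLO1 and HPR1 had 0.85, SHMT1 and GLO4 0.84, and GLO4 and HPR1 0.83. The weakest pair of decarboxylase members was GDC-P1 with GDC-H, at 0.37. Between the decarboxylase members and the other members r ran from −0.45 for GDC-P2 with GLO1 to 0.42 for GDC-T with GLO4, so the ranges overlapped. Over the 38 libraries r was 0.59 for GDC-T with GLO4 and 0.56 for GDC-H with GLO4, both above the 0.42 of GDC-P1 with GDC-H. These values describe libraries that share hour and temperature, and so the daytime course enters them.

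Outside the members, the genes most alike over the 40 libraries were sought among those with a mean log2 CPM of at least 2. GLO4 and HPR1 had the same gene in first place, an aminotransferase of classes I and II (LOC_Os07g01760) that the pathway list holds at the glyoxylate step, with r of 0.94 and 0.91. Second for GLO4 was a lactate/malate dehydrogenase (LOC_Os03g56280, r 0.93), and second for HPR1 an expressed protein (LOC_Os06g04390, r 0.89). SHMT1 was matched by an FHA domain protein (LOC_Os12g03070) and a NUDIX family hydrolase (LOC_Os07g36190), both at 0.97. For GLO1 the closest were photosystem II reaction center W protein (LOC_Os01g56680, r 0.86) and uroporphyrinogen decarboxylase (LOC_Os03g21900, r 0.84). GDC-P1 was closest to a DNA-binding protein (LOC_Os02g47560, r 0.92) and a C-terminal processing peptidase homologue (LOC_Os06g21380, r 0.89). GDC-P2 had the weakest match of the 8, an FtsH protease (LOC_Os06g51029, r 0.80), followed by a PPR repeat protein (LOC_Os10g34310, r 0.76). GDC-T was closest to a glyoxalase family protein (LOC_Os02g17920, r 0.95) and a peroxisomal membrane protein (LOC_Os01g53060, r 0.94). GDC-H was closest to an ATP synthase delta subunit (LOC_Os02g51470, r 0.96) and a conserved membrane protein (LOC_Os05g33290, r 0.93). Without the 2 libraries that stood apart, these became 0.87 and 0.82.

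The pathway list holds 29 other genes, among them phosphoglycolate phosphatases, catalases, aminotransferases, further glycine decarboxylase and serine hydroxymethyltransferase genes, glycerate kinase, plastid transporters and the plastid ammonium enzymes. In hot 2 h leaves 1 of the 29 (3.45%) fell and 0 rose, beside 8.2% of all genes changed. It is another serine hydroxymethyltransferase (LOC_Os05g35440), with geometric means of 74.3 CPM in hot leaves and 108 CPM in warm leaves and a change of −0.54 ± 0.15 (SE, adjusted p 0.0197). It did not pass with lane in the model (adjusted p 0.135), nor without hot 2 h replicate 4, warm 2 h replicate 2 or warm 2 h replicate 4. In hot 6 h leaves 1 of 29 fell and 0 rose, beside 6.9% of all genes changed: an lrgB-like family protein (LOC_Os10g42780) that the list holds among plastid transporters, at 17 CPM in hot leaves and 49.5 CPM in warm leaves, with a change of −1.54 (adjusted p 0.0121) that did not pass without warm 6 h replicate 4 (adjusted p 0.0753). Median changes of the 29 were 0.06 at 2 h and 0.00 at 6 h. None of the 29 passed in hot 24 h leaves or at any hour in cold leaves in limma. At an unadjusted p under 0.05 there were 0 in hot 24 h leaves and 3, 0 and 3 in cold leaves at 2, 6 and 24 h.

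Between hot and cold leaves at 2 h, 1 of the 29 rose and 3 fell. That is 13.8% of the list, beside 15.1% of all genes, and so no more than the background. Catalase isozyme A (LOC_Os02g02400), one of the enzymes that break down hydrogen peroxide, rose by 1.59 ± 0.56 with an adjusted p of 0.0475. It passed in 7 of 11 alternatives and in only 2 of 8 fits that left out 1 library. Both serine hydroxymethyltransferases LOC_Os01g65410 and LOC_Os05g35440 fell, with changes of −0.86 and −0.69 (adjusted p 0.00278 and 0.00148). The 2-oxoglutarate/malate translocator (LOC_Os12g33080), which moves carbon skeletons for ammonium reassimilation, fell as well (−0.85, adjusted p 0.0315) and passed in 3 of 8 such fits. At 6 h LOC_Os05g35440 fell and no other gene of the 29 passed (−0.60, adjusted p 0.00788).

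In warm leaves at 2 h relative to 0 h, 3 of the 29 rose and 3 fell, 20.7% of the list beside 22.3% of all genes. The rises were 2 further hydroxyacid oxidases, LOC_Os04g53214 (1.05) and LOC_Os07g42440 (1.27), and a second H protein, LOC_Os02g07410 (1.56). The falls were both aminotransferases, LOC_Os07g01760 (−0.86) and LOC_Os08g39300 (−0.81), and the lrgB-like protein LOC_Os10g42780 (−2.48). When only these groups were fitted, LOC_Os07g01760 and LOC_Os02g07410 did not pass (adjusted p 0.0583 and 0.0514), and LOC_Os08g39300 did not pass after quantile normalization (0.0694) or without warm 0 h replicate 1 or warm 2 h replicate 1. Thus GLO1 and GLO4 fell while 2 other loci of the same product name rose, at far lower CPM. Geometric means of LOC_Os04g53214 and LOC_Os07g42440 were 5.36 and 11.8 CPM at 0 h and 11.1 and 28.4 CPM at 2 h. Those of GLO1 and GLO4 were 3336 and 2212 CPM at 0 h and 1530.5 and 1266 CPM at 2 h. At 6 h relative to 2 h, 6 rose and 3 fell, 31% of the list beside 19.6% of all genes, among them a glutamine synthetase (LOC_Os04g56400), listed at the plastid ammonium step, which fell by 1.00, and the aminotransferase LOC_Os08g39300, which rose by 1.41. The F test over the warm hours passed for 17 of the 29 (58.6%), beside 44.7% of all genes.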

How the data were processed

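Total RNA of rice leaves was sequenced single-end after removal of ribosomal RNA, with a stranded kit, per the labels' protocols. The authors deposited 1 table of log2 CPM for 19308 genes in 40 libraries. An offset of 0.5 reads was found from the values. Per the submitters' processing notes, the build was IRGSP-1.0 and the tools included limma 3.20.1 and edgeR 3.4.2 for expression, featureCounts 1.5.0-p1 for counting and Subread 1.5.0-p1. The sources used here do not give the strand setting of the counting or the treatment of reads matching several places, which could shift values between paralogs (GDC-P1 and GDC-P2, GLO1 and GLO4). No member overlaps another gene of the table.

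The members and lists were chosen with earlier results of these data known. From the deposited log2 values, limma 3.58.1 in R 4.3.3 fitted 1 mean for each of the 10 groups, with an intensity trend and robust estimation, and p-values were adjusted over all genes by the Benjamini-Hochberg method, two-sided. No gene was filtered out. The fit was tested on simulated data, with reads drawn independently for each library and the same spread setting for every gene. Those data held no lane effect, no shared tank and no library that stood apart, so the p-values were not tested for these. Whole reads, recovered from the values within 0.001 for 100% of them, gave depth (1830817 to 9628451 reads in genes) and voom weights. Ratios and neighbouring levels had exact two-sided permutation tests over libraries. Summaries were made with numpy 2.4.6 and pandas 2.3.3, and figures with matplotlib 3.10.9, in Python 3.11.15.

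The text names all 8 members, genes of the pathway list that passed the test, and the 2 genes outside the members with the highest Pearson r to each member over the 40 libraries. Of the list, 8 genes that product names had drawn in (phosphoglycerate dehydrogenases and kinases) were left out after their mean levels had been seen. Cell types were checked with markers of mesophyll, vascular tissue, guard cells and dividing cells. Alternatives were voom weights, no trend, CPM plus 1, a minimum mean log2 of 0, and quantile or median scaling. Others were the replicate number as a block over all temperatures or within temperature, lane, only the groups compared, and no library that stood apart. Each replicate was also left out.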

Additional observations from a re-analysis of the deposited data

Results flagged for a closer look

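Among 80 groups of 4 libraries, 10 for each member, 3 held a library far from the other 3, by the gap to its nearest neighbour relative to the range of the group. Chance alone gives about 1 such group in 20, so 3 of 80 is not more than that share. GDC-H stood at a log2 CPM of 10.89 in hot 24 h replicate 1, against 8.46 to 8.544 in the other hot 24 h libraries. It stood at 3.934 in warm 0 h replicate 1, against 8.467 to 9.077 in the other warm 0 h libraries. These are the 2 libraries with the lowest correlation to their group mates. GDC-P2 stood at 11.58 in cold 6 h replicate 3, against 11.96 to 12.02 in the other cold 6 h libraries.

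In the pathway list, the heat response of the lrgB-like family protein LOC_Os10g42780 differed between hours. Its hot minus warm change at 6 h was lower than that at 2 h by a log2 difference of −2.673 (SE 0.56, adjusted p 0.0465 in limma). Geometric means were 90.4 CPM in hot 2 h leaves and 41.3 CPM in warm 2 h leaves, and 17 CPM in hot 6 h leaves and 49.5 CPM in warm 6 h leaves. The difference passed in 6 of 11 alternatives (highest adjusted p 0.086) and in 2 of 16 fits that left out 1 library, so the call is close to the threshold.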

How the results depend on the processing

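The falls of GDC-P1 in hot leaves at 2 and 6 h kept their direction and passed under all 11 alternatives, with log2 changes from −1.57 to −1.08 and from −2.10 to −1.74, and in all 8 fits without 1 library. Quantile normalization gave 4 called members for hot 2 h against warm 2 h (2 without it) and 2 for hot 6 h against warm 6 h (1 without it). For hot 2 h against cold 2 h it gave 2 (1 without it, and GDC-P1 not among them). It gave 1 for warm 6 h against warm 2 h, and 1 for the heat response at 24 h minus 6 h (0 without it). In that order, it called 9.94%, 8.68%, 15.25%, 21.94% and 1.56% of all genes. It also turned the change of GDC-P1 between warm 6 h and warm 2 h leaves round, to 0.062 (adjusted p 0.916). Fitting only the groups compared gave 3 for hot 6 h against warm 6 h (14.47% of all genes). It gave 2 and 5 for hot against cold leaves at 2 and 6 h (17.4% and 22.61%), and 1 for warm 6 h against warm 2 h (25.28%). Lane in the model gave 2 at both 2 and 6 h for hot against cold leaves (9.15% and 4.96%). Without both libraries that stood apart, 2 members were called for hot 6 h against warm 6 h (10.93%) and 3 for hot 2 h against cold 2 h (21.35%). Voom weights gave 1 for warm 6 h against warm 2 h (22.66%). The cause of these moves was not tested.

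Leaving out 1 library at a time gave 1 to 2 called members for hot 2 h against warm 2 h, 0 to 1 for hot 2 h against cold 2 h, 1 to 2 for warm 6 h against warm 2 h, 6 to 8 for warm 2 h against warm 0 h (6 in all libraries), 6 to 7 for the F test over warm hours (6 in all libraries), and 0 to 1 for the heat response at 24 h minus 6 h. Hot, cold and warm leaves came from separate tanks, so a replicate number could mark a shared tank only within a temperature. Same-numbered warm libraries had correlations of their deviations from −0.093 to 0.27 between 0 and 2 h. These ran from −0.0007 to 0.24 between 2 and 6 h, and from −0.013 to 0.19 between 0 and 24 h. Of the 4 numbers, 2, 2 and 3 correlated best with their own, where random matching would give 1 of 4 on average. Hours within hot and within cold leaves were not checked. No comparison had all 4 above 0.1. In no comparison did every library correlate best with its own number. A shared tank need not give either pattern, so these values do not settle whether a number marks a tank. With the replicate number as a block within temperature, the correlation within blocks was 0.033. The called falls of GDC-P1 and GDC-P2 in hot against warm leaves were kept there. With the number as a block over all temperatures, 2 members were called at 2 h and 1 at 6 h in hot against warm leaves. In warm 6 h against warm 2 h leaves 1 was called. Over 1584 member changes refitted on other settings, 1558 kept their side of the threshold, 67 of them with the opposite sign and past in neither fit. Most of the 1584 were not past in the main fit and had no call to lose, so the 1558 are not a measure of how stable the calls are. A further 5 lost the call, 20 gained one and 1 reversed.

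Over all genes, 1584 were called in hot 2 h and 1333 in hot 6 h leaves against warm leaves. Lane in the model gave 553 and 267, fitting only the groups compared 2639 and 2793, and leaving out both libraries that stood apart 2705 and 2110. For hot against cold leaves, 2907 and 1599 genes were called at 2 and 6 h, with 1767 and 957 under lane and, at 6 h, 4365 when only those groups were fitted. For warm 2 h against 0 h leaves, 4307 became 1813 when only those groups were fitted. For warm 24 h against 0 h leaves, 564 became 217 with voom weights, 337 after quantile normalization, 1 with only those groups and 110 without both libraries. For the heat response, 13 genes at 6 h minus 2 h became 4 to 41, 210 at 24 h minus 6 h became 103 with only those groups, and 161 at 24 h minus 2 h became 374 with lane and 47 with only those groups. For hot 24 h against cold 24 h leaves, 0 became 423 without hot 24 h replicate 2. Leaving out 1 library gave 582 (without hot 2 h replicate 4) to 1690 genes for hot 2 h and 658 (without warm 6 h replicate 1) to 1131 for hot 6 h against warm leaves. It gave 1664 (without hot 2 h replicate 4) to 2849 for hot 2 h and 1009 (without cold 6 h replicate 1) to 1312 for hot 6 h against cold leaves. For warm 24 h against 0 h it gave 42 and 1507 (without warm 0 h replicates 1 and 2). For the heat response it gave 31 to 711 at 24 h minus 2 h and 74 to 638 at 24 h minus 6 h (lowest without warm 24 h replicate 2, highest without hot 24 h replicate 2), and 2 to 16 at 6 h minus 2 h.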
